A study of Mus musculus with 6 samples.

Results

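Linker histones and HMGN proteins are 2 families of abundant chromatin proteins that bind the nucleosome itself. The genes described here are the linker histones H1f0, H1f1, H1f2, H1f3, H1f4 and H1f5 and the HMGN genes Hmgn1, Hmgn2, Hmgn3 and Hmgn5. They were chosen by gene name from the authors' count table, with the results of the comparison described here already known, and are 10 of its 55487 genes. Their differences between the groups are therefore given as a description, with no test. Of the 10, 9 had enough counts to enter the fit across all genes, and H1f1 did not. The cells were MIN6, a mouse insulinoma line that secretes insulin and is labelled as pancreatic beta cell. Once confluent in 6-well plates, they were transfected with Lipofectamine, a lipid reagent, in both groups. The first group received full-length PTHrP, the parathyroid hormone-related protein (3 libraries), and the second the empty vector DsRed (3 libraries), and RNA was collected within 3 days. The transfections were transient, the share of cells that took up the plasmid is not given in the labels, and no library of untransfected cells was analysed here.

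A linker histone sits on the nucleosome where DNA enters and leaves, closing the particle and favouring compact chromatin. Most mouse linker histone genes (H1f1 to H1f5) lie among the core histone genes, are transcribed mainly in S phase, and give mRNAs that typically end in a conserved stem-loop bound by Slbp rather than in a poly(A) tail. H1f0 lies alone, gives a polyadenylated mRNA outside S phase too, and is known for accumulating in differentiated and slowly dividing cells. HMGN proteins bind nucleosomes through a conserved domain, compete with linker histones for them, and are known for loosening H1-dependent compaction. In mice, Hmgn3 is expressed in islet cells and has been tied to glucose-stimulated insulin secretion and to the glucose transporter gene Slc2a2.

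Sequences that bear on how each linker histone mRNA ends and on which promoter letters the genes share are shown first. The capitals mark the 16-base histone stem-loop found after the last coding base of 3 of the 6 linker histone transcripts (GENCODE M21, GRCm38), each printed 5′ to 3′ with 5 bases on either side.
H1f2: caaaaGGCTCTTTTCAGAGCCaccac
H1f3: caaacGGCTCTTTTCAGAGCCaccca
H1f4: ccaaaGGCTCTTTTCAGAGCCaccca
The stem-loop lies at chr13:23739512-23739527 on the plus strand in H1f2, at chr13:23555787-23555802 on the plus strand in H1f3 and at chr13:23621782-23621797 on the minus strand in H1f4. It begins 28 bases after the last coding base in H1f2, 35 in H1f3 and 44 in H1f4, and the 16 bases themselves are the same in all 3 genes. The annotated exon continues past it by 840 bases in H1f2, by 4884 in H1f3 and by 1153 in H1f4. No match was found in the 1201 annotated bases after the last coding base of H1f0. None was found in the 51 of H1f1 either, but a stem-loop placed as far out as that of H1f4 would run past them. H1f5 has no annotated sequence there beyond its stop codon, so its end could not be read. The search used a consensus that allowed C or T, A or G, or any base at some of the 16 positions. Applied to whole annotated transcripts, it matched 68 of 21847 protein-coding genes (0.311%) and 39 of 58 replication-dependent core histone genes (67.2%). Whether the libraries were made from polyadenylated RNA is not given in the sources used here, and that bears on how fully mRNAs ending in a stem-loop were counted.

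The promoters of the 6 linker histone genes are shown next (RefSeq, GRCm38.p6), from base -130 to base -21 relative to the RefSeq start site. Capitals mark 3 motifs searched on both strands. The H1 box was spelled AAACACA. The CCAAT box was searched as those 5 letters, and a match on the reverse strand reads ATTGG here. The TATA box was spelled TATAAA.
H1f0: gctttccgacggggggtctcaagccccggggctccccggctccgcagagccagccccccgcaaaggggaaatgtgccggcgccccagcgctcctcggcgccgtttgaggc
H1f1: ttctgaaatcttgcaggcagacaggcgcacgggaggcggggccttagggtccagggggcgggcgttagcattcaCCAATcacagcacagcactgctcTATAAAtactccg
H1f2: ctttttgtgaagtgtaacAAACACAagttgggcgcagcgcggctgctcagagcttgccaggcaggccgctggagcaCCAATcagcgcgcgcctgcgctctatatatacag
H1f3: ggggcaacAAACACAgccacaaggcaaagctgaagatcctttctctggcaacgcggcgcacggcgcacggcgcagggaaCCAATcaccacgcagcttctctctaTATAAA
H1f4: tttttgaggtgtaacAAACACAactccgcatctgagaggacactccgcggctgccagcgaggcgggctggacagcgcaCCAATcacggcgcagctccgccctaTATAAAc
H1f5: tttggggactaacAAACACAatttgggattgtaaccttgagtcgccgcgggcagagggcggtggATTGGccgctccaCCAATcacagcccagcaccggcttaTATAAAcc
These stretches lie at chr15:79028082-79028191 (plus strand), chr13:23763538-23763647 (plus), chr13:23738677-23738786 (plus), chr13:23554902-23555011 (plus), chr13:23622579-23622688 (minus) and chr13:21780646-21780755 (minus). The H1 box, a motif known for the promoters of replication-dependent linker histones, was in H1f2, H1f3, H1f4 and H1f5, with its first base between -122 and -112. A forward CCAAT box began between -56 and -51 in all 5 clustered genes, H1f1 included. TATAAA began between -33 and -26 in H1f1, H1f3, H1f4 and H1f5, and those letters were not in the H1f2 window. H1f0 had none of the 3 motifs in its 300-base RefSeq promoter. That promoter was 75.0% G and C, against 45.7% to 54.3% in the 5 clustered genes. It ends at chr15:79028261, whereas the GENCODE exon of H1f0 begins downstream at chr15:79028450, and the bases between were not searched. The GENCODE exon of H1f3 also has another start, upstream at chr13:23553262. Over 32851 RefSeq promoters of the same length, 7.18% held the H1 box, 37.4% the CCAAT box, 13.6% the TATA box and 2.67% the H1 box together with a CCAAT box. Of the HMGN genes with a RefSeq promoter, Hmgn1, Hmgn2 and Hmgn5 each held CCAAT and none held the H1 box or TATAAA. The cAMP response element TGACGTCA, found in 1.79% of promoters, was in none of the 9. These matches describe letters and say nothing of binding.

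**Figure D1:**
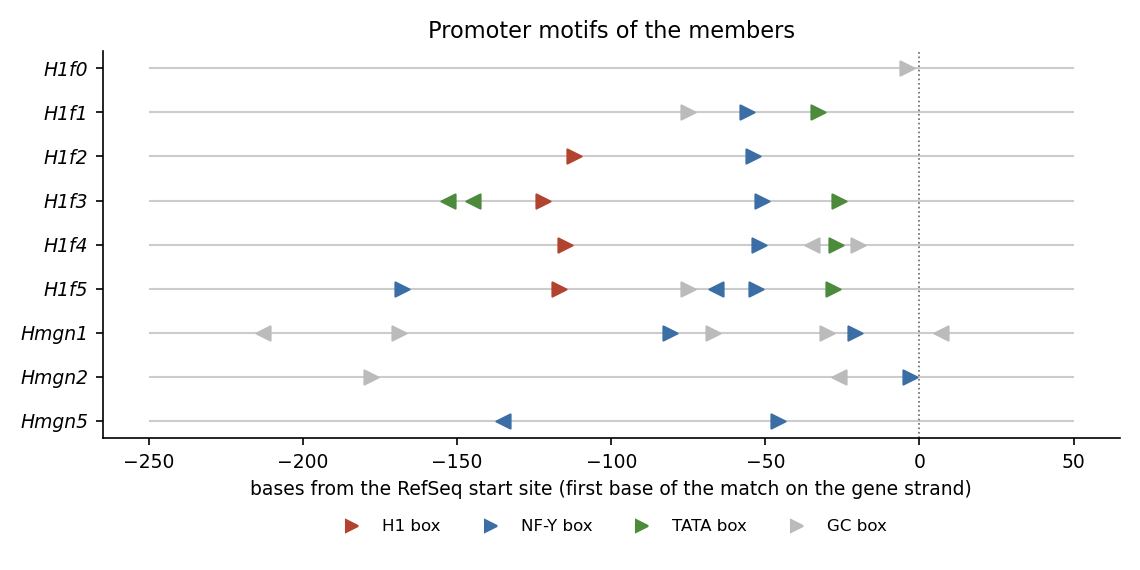
Positions of 4 motifs in the RefSeq promoters of 9 of the 10 genes (one line per gene, x axis in bases from the RefSeq start site, right-pointing marks for forward and left-pointing marks for reverse matches, NF-Y box for the CCAAT box). The H1 box appears in H1f2, H1f3, H1f4 and H1f5 at -122 to -112, upstream of a CCAAT box at -54 to -51, while H1f0 carries only a GC box (GGGCGG, in 35.7% of all promoters).

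The 10 genes differed widely in level. Levels between genes are given as CPM, the counts of a gene relative to the TMM-scaled library size, per kilobase of merged exons (CPM per kb). H1f0 was the highest at 365.5 ± 16.9 CPM per kb in PTHrP cells and 291 ± 9.79 in DsRed cells (SD, n = 3 each). Hmgn2 followed with 163 ± 16.2 CPM per kb in PTHrP cells and 207 ± 6.07 in DsRed cells, and Hmgn1 with 81.3 ± 8.11 and 84.1 ± 3.89 in PTHrP and DsRed cells. Over the 6 libraries the ranges of these 3 genes did not overlap, since H1f0 lay between 282 and 382 CPM per kb, Hmgn2 between 149 and 213, and Hmgn1 between 76.7 and 90.7. In share of counts, H1f0 stood at percentile 99.4 and Hmgn2 at percentile 99.2 of all genes tested.

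The middle of the order held H1f2, Hmgn3 and Hmgn5. H1f2 had 27.4 ± 4.35 CPM per kb in PTHrP cells and 17.6 ± 1.91 in DsRed cells. Hmgn3 had 15.6 ± 0.926 CPM per kb in PTHrP cells and 18.9 ± 0.689 in DsRed cells, and Hmgn5 had 11.4 ± 3.89 in PTHrP cells and 9.68 ± 0.588 in DsRed cells. The range of Hmgn3 over the libraries overlapped with those of both H1f2 and Hmgn5, so these neighbours are not separated. The lowest members were H1f5, H1f4, H1f3 and H1f1, all under 3 CPM per kb in every library. Among them, H1f3 could not be told from H1f4 or from H1f1 by its range.

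That order rests in part on how long each histone exon is taken to be. GENCODE gives H1f3 an exon of 7425 bases and H1f2 one of 1560, whereas the RefSeq genes span 776 and 725 bases. With the RefSeq lengths, an alternative added after seeing the data, H1f3 had 3.68 CPM per kb in PTHrP cells and 2.43 in DsRed cells and stood above H1f5 and H1f4 by group mean. With the same lengths H1f2 had 59.0 CPM per kb in PTHrP cells and 37.8 in DsRed cells, and exceeded Hmgn3 in all 6 libraries. H1f0 remained the highest, at 328 CPM per kb in PTHrP cells and 261 in DsRed cells. The order also rests on how fully mRNAs ending in a stem-loop were counted, which is not known.

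**Figure D2:**
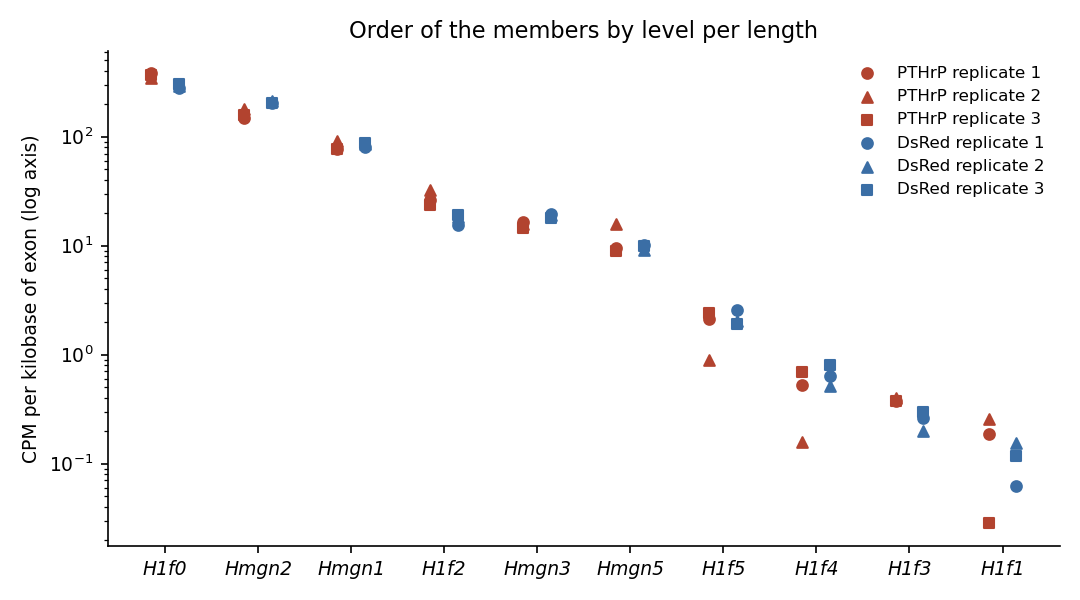
Level of each gene in each library on a log axis (TMM-scaled CPM per kb of merged exons, n = 3 libraries per group, PTHrP points left of DsRed points). H1f0, Hmgn2 and Hmgn1 occupy separate ranges at the top, and the H1f2, Hmgn3 and Hmgn5 points run into each other.

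H1f0 held most of the linker histone level per kb in both groups. How fully mRNAs ending in a stem-loop were counted is not known. The shares below are therefore shares of counted reads and may differ from those of the transcripts in the cells. Of the summed CPM per kb of H1f0 to H1f5, H1f0 gave 92.3% ± 1.07 in PTHrP cells and 93.4% ± 0.324 in DsRed cells, and H1f2 gave 6.95% ± 1.3 and 5.63% ± 0.449 in PTHrP and DsRed cells (SD, n = 3 each). That sum leaves out H1f10, a linker histone that is not among the 10 genes. With H1f10 added, an alternative chosen after seeing the data, the H1f0 share was 73.6% ± 0.778 in PTHrP cells and 73.1% ± 2.17 in DsRed cells, so the order of the group means was the opposite and the groups overlapped. The H1f0 gene (ENSMUSG00000096210) is a single exon on chromosome 15, at chr15:79028450-79030504 on the plus strand. Its counts were 67501, 60777 and 71800 in the PTHrP libraries, against 50099, 52064 and 56685 in the DsRed libraries. Scaled to TMM-adjusted library size, that is 784.0, 714.9 and 754.3 CPM in the PTHrP libraries and 579.7, 594.4 and 619.5 CPM in the DsRed libraries. Every PTHrP library was above every DsRed library, and the lowest PTHrP value came from PTHrP replicate 2. The group means were 751 ± 34.7 CPM in PTHrP cells and 598 ± 20.1 CPM in DsRed cells, a difference of 0.33 ± 0.05 on the log2 scale (SE) or 1.26-fold. The antisense gene Gm49544 shares 163 exonic bases with H1f0 but averaged 0.261 CPM in PTHrP cells and 0.206 CPM in DsRed cells. These are bulk libraries, in which a change in the number of cells expressing a gene and a change in RNA per cell cannot be told apart.

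The clustered genes did not all lie on the same side. H1f2 (Hist1h1c in GENCODE M21, chr13:23738808-23740367, plus strand) is the most abundant of them. The PTHrP libraries gave 3522, 4278 and 3535 H1f2 counts, against 2075, 2512 and 2705 in the DsRed libraries, which is 40.9, 50.3 and 37.1 CPM against 24.0, 28.7 and 29.6 CPM. The 2 groups did not overlap, and PTHrP replicate 2 was the highest library. H1f2 averaged 42.8 ± 6.79 CPM in PTHrP cells and 27.4 ± 2.98 CPM in DsRed cells, a log2 difference of 0.64 ± 0.12 (SE), or 1.56-fold. H1f3 (Hist1h1d, chr13:23553262-23560686, plus strand) had 239, 253 and 268 counts in the PTHrP libraries, against 167, 131 and 203 in the DsRed libraries. Its CPM values were 2.78, 2.98 and 2.82 in PTHrP cells and 1.93, 1.5 and 2.22 in DsRed cells, without overlap. The means were 2.86 ± 0.106 CPM in PTHrP cells and 1.88 ± 0.364 CPM in DsRed cells, a log2 difference of 0.60 ± 0.20 (SE), or 1.52-fold.

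The other 3 clustered genes overlapped between the groups. H1f4 (Hist1h1e, chr13:23620629-23622558, minus strand) had 1.02, 0.306 and 1.32 CPM in the PTHrP libraries, against 1.23, 0.993 and 1.54 CPM in the DsRed libraries, from 26 to 141 counts. H1f5 (Hist1h1b, chr13:21779883-21780625, minus strand) had 1.58, 0.659 and 1.81 CPM in the PTHrP libraries, against 1.89, 1.51 and 1.41 CPM in the DsRed libraries. In both genes PTHrP replicate 2 was the lowest of the 6 libraries, while it was the highest for H1f2. The log2 difference was -0.50 ± 0.44 for H1f4 and -0.24 ± 0.33 for H1f5 (SE). Without PTHrP replicate 2 these values were -0.09 for H1f4 and 0.08 for H1f5, and that of H1f5 changed sign. H1f4 also shares 496 exonic bases on its own strand with the core histone gene H2bc6, which averaged 0.321 CPM in PTHrP cells and 0.305 CPM in DsRed cells. H1f1 (Hist1h1a, chr13:23763666-23764406, plus strand), a variant found in few tissues, was counted 12, 16 and 2 times in the PTHrP libraries, against 4, 10 and 8 times in the DsRed libraries, which is too few to fit.

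**Figure D3:**
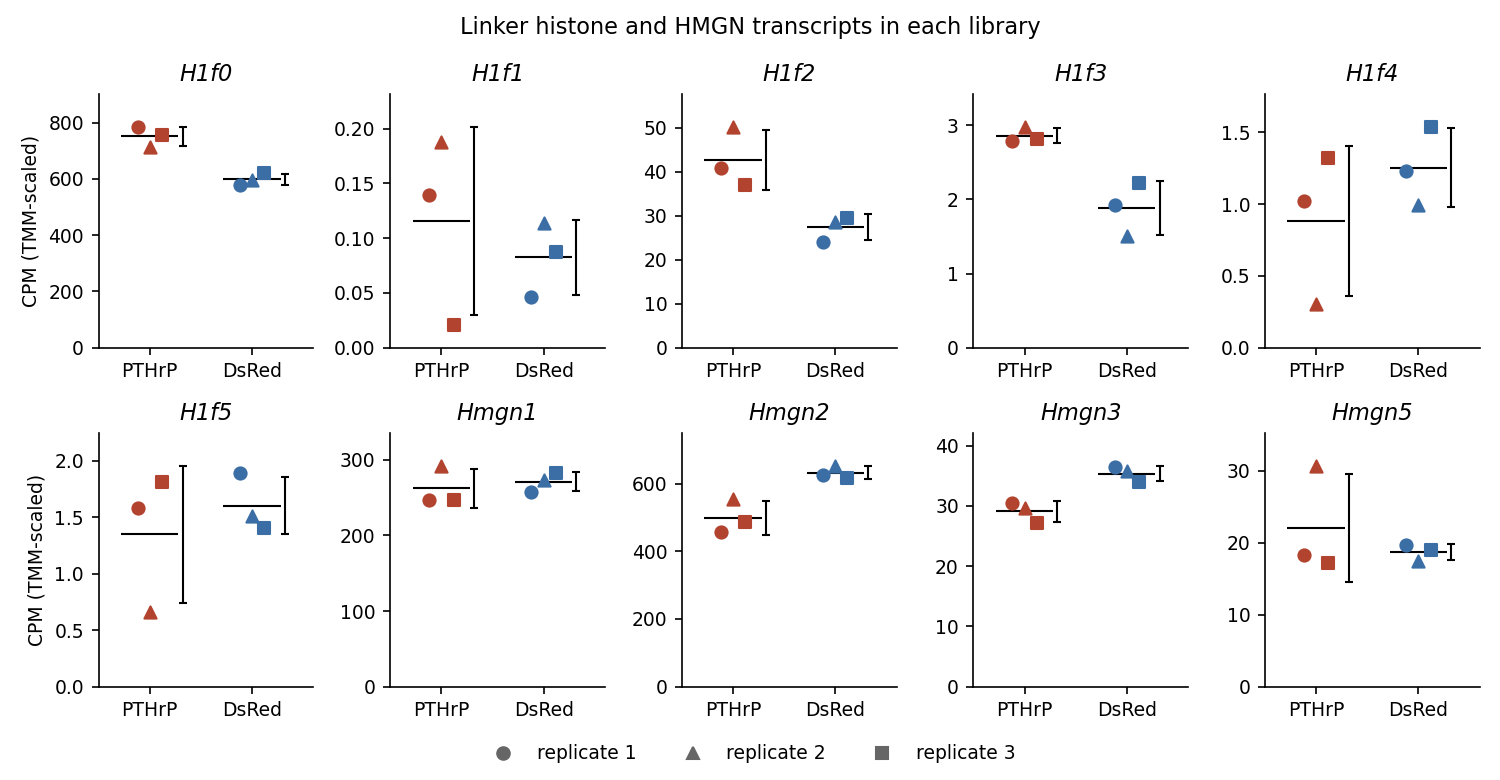
TMM-scaled CPM of each of the 10 genes in every library (y axes start at 0, one panel per gene, points are libraries, horizontal bars the mean and vertical bars 1 SD, n = 3 per group). H1f0, H1f2 and H1f3 have all PTHrP points above all DsRed points, Hmgn2 and Hmgn3 have them all below, and the other 5 overlap.

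Among the HMGN genes the 2 with no overlap between groups were lower in PTHrP cells. Hmgn2 (chr4:133964738-133968650, minus strand), like Hmgn1 expressed in most cell types, had 39368, 47093 and 46248 counts in the PTHrP libraries, against 54130, 57199 and 56476 in the DsRed libraries. This is 457, 554 and 486 CPM in PTHrP cells and 626, 653 and 617 CPM in DsRed cells. The highest PTHrP value, from replicate 2, stayed under the lowest DsRed value. The means were 499 ± 49.6 CPM in PTHrP cells and 632 ± 18.6 CPM in DsRed cells, a log2 difference of -0.34 ± 0.07 (SE), or 0.789-fold. Reads can be shared with near-identical copies, and the pseudogene Hmgn2-ps1 had 4.66 ± 0.59 CPM in PTHrP cells and 5.03 ± 0.414 CPM in DsRed cells.

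Hmgn3 (chr9:83109948-83146685, minus strand), the family member linked in mice to beta cell function, had 2627, 2520 and 2587 counts in the PTHrP libraries, against 3145, 3132 and 3103 in the DsRed libraries. The CPM values were 30.5, 29.6 and 27.2 in PTHrP cells and 36.4, 35.8 and 33.9 in DsRed cells, and the groups did not overlap. Its means were 29.1 ± 1.73 CPM in PTHrP cells and 35.4 ± 1.29 CPM in DsRed cells, a log2 difference of -0.28 ± 0.08 (SE), or 0.823-fold. Gm2065 and Gm29054 overlap Hmgn3 exons on the opposite strand by 30 and 255 bases, and both averaged under 1 CPM in either group.

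Hmgn1 and Hmgn5 overlapped between the groups. Hmgn1 (chr16:96120618-96127729, minus strand) had 247, 292 and 247 CPM in the PTHrP libraries and 257, 273 and 282 CPM in the DsRed libraries, a log2 difference of -0.05 ± 0.07 (SE). Leaving out PTHrP replicate 2 gave -0.13 ± 0.05, and leaving out PTHrP replicate 1 gave -0.01. Hmgn5 (chrX:109004534-109013404, minus strand), a member with a long acidic tail, had 18.3, 30.7 and 17.2 CPM in the PTHrP libraries and 19.7, 17.5 and 19.0 CPM in the DsRed libraries. PTHrP replicate 2 alone lay above the others. The log2 difference of Hmgn5 was 0.24 ± 0.21 (SE) and was -0.08 without that library.

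Summed over each family, the 2 groups stood apart in opposite directions. The 6 linker histones together had 830.5, 769.3 and 797.4 CPM in the PTHrP libraries, against 608.9, 627.2 and 654.3 CPM in the DsRed libraries. Leaving H1f0 out, H1f1 to H1f5 summed to 46.4, 54.4 and 43.1 CPM in PTHrP cells and 29.1, 32.8 and 34.8 CPM in DsRed cells. H1f2 gave most of that sum, with 40.9, 50.3 and 37.1 CPM in PTHrP cells and 24.0, 28.7 and 29.6 CPM in DsRed cells. Of the others that could be fitted, H1f3 lay on the same side by group mean and H1f4 and H1f5 on the other. The 4 HMGN genes together had 753, 906 and 777 CPM in the PTHrP libraries, against 939.8, 979.6 and 952 CPM in the DsRed libraries, with PTHrP replicate 2 the closest to the DsRed range. Without Hmgn2, the other 3 HMGN genes summed to 295.7, 353 and 291 CPM in the PTHrP libraries and 313, 327 and 335 CPM in the DsRed libraries, which overlapped.

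**Figure D4:**
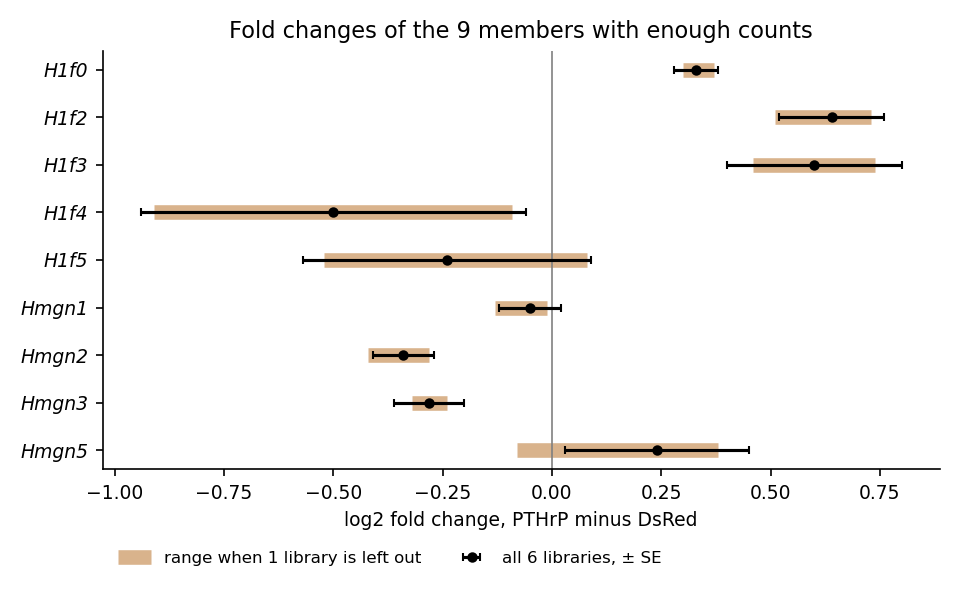
Log2 difference of each of the 9 fitted genes (PTHrP over DsRed, x axis), with black bars of 1 SE and a shaded band for the range obtained when each library was left out in turn. The bands of H1f0, H1f2 and H1f3 stay above 0 and those of H1f4, Hmgn1, Hmgn2 and Hmgn3 below 0, whereas H1f5 and Hmgn5 reach both sides.

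Leaving out each library in turn gave log2 differences of 0.30 to 0.37 for H1f0, 0.51 to 0.73 for H1f2 and 0.46 to 0.74 for H1f3. The same ranges were -0.42 to -0.28 for Hmgn2 and -0.32 to -0.24 for Hmgn3. They were wider relative to the difference for the members that overlapped, at -0.91 to -0.09 for H1f4, -0.52 to 0.08 for H1f5, -0.13 to -0.01 for Hmgn1 and -0.08 to 0.38 for Hmgn5. Because the genes were named with this contrast in view, the counts of calls that follow are stated beside their background and nothing is read from them. In the edgeR quasi-likelihood test across all genes, 0 of the 9 fitted members passed an adjusted p of 0.05, and 9 of 21141 genes did (0.0426%). With limma-voom 0 members passed, among 9 genes called (0.0426%). DESeq2 called H1f0, H1f2 and Hmgn2, among 136 of 14992 genes with an adjusted p (0.907%). The same 3 members passed in edgeR with no filter on low counts, among 220 genes (0.495%), and without PTHrP replicate 2, among 213 genes (0.954%). At an unadjusted edgeR p under 0.05 there were 3 members on the higher side (H1f0, H1f2 and H1f3) and 2 on the lower side (Hmgn2 and Hmgn3), joined by Hmgn1 on the lower side without PTHrP replicate 2. Over all genes tested 1881 (8.9%) were under that value, with 4.92% higher and 3.98% lower. The groups did not overlap for the same 3 members higher and 2 lower, and for 16.3% of all genes tested, 8.45% higher and 7.88% lower.

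Ratios of counts within a library need no scaling between libraries, so they show how the members stood to each other. H1f0 was higher and Hmgn2 lower in every PTHrP library than in any DsRed library. Their ratio therefore had to separate the groups and restates those differences. There were 1.71, 1.29 and 1.55 H1f0 counts per Hmgn2 count in the PTHrP libraries, against 0.926, 0.91 and 1.0 in the DsRed libraries. The ratio averaged 1.52 ± 0.214 in PTHrP cells and 0.946 ± 0.0501 in DsRed cells, so H1f0 counts exceeded Hmgn2 counts in every PTHrP library. In the DsRed libraries they were lower in replicates 1 and 2 and close to equal in replicate 3, with 56685 H1f0 and 56476 Hmgn2 counts. H1f0 over Hmgn1 was 3.17, 2.45 and 3.06 in the PTHrP libraries and 2.25, 2.17 and 2.20 in the DsRed libraries, also without overlap.

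Within each family the ratios divided the members further. Hmgn2 over Hmgn1 was 1.85, 1.90 and 1.97 in the PTHrP libraries, against 2.43, 2.39 and 2.19 in the DsRed libraries, without overlap. PTHrP replicate 2, whose Hmgn2 level was nearest to the DsRed range, lay between the other PTHrP libraries in this ratio. Hmgn2 over Hmgn3 overlapped, with 15.0, 18.7 and 17.9 in the PTHrP libraries and 17.2, 18.3 and 18.2 in the DsRed libraries. H1f0 over H1f2 was lower in the PTHrP libraries, with 19.2, 14.2 and 20.3 against 24.1, 20.7 and 21 in the DsRed libraries, and the nearest values of the 2 groups were 20.3 and 20.7. H1f2 over H1f3 overlapped, at 14.9 ± 1.87 in PTHrP cells and 15.0 ± 3.67 in DsRed cells.

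**Figure D5:**
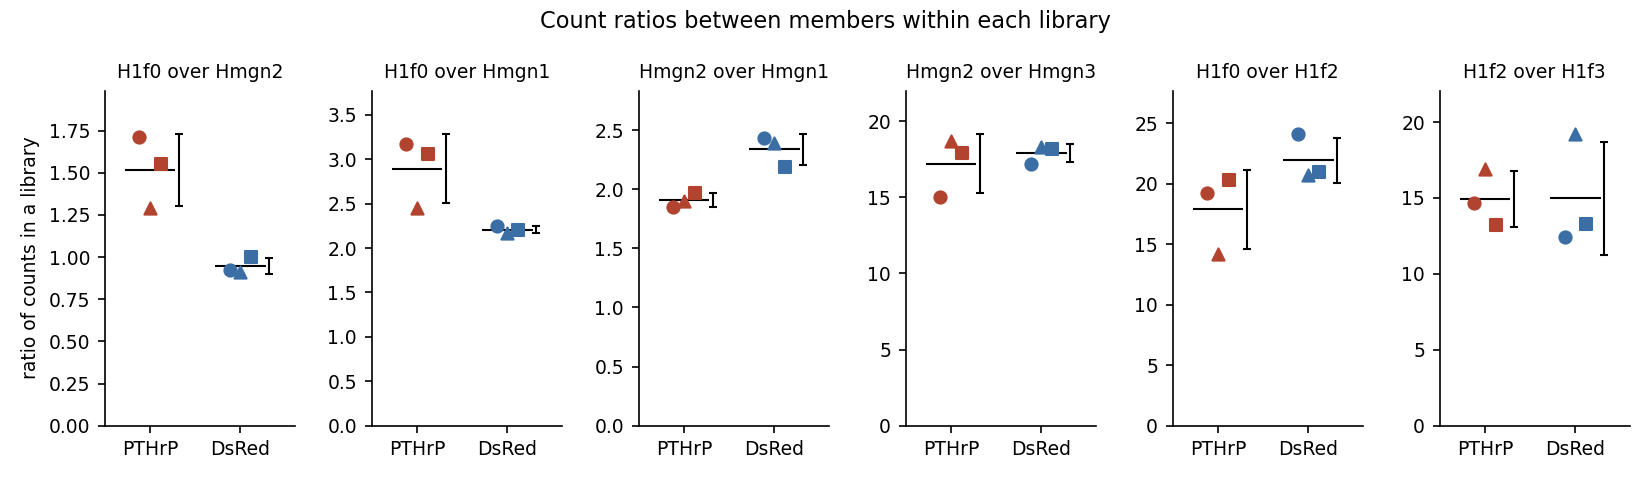
Ratio of raw counts of a pair of members within each library (one panel per pair, y axes start at 0, points are libraries with 1 marker shape per replicate number, bars are the mean and 1 SD, n = 3 per group). H1f0 over Hmgn2 lies at 1.29 to 1.71 in the PTHrP libraries and 0.91 to 1.0 in the DsRed libraries, and H1f2 over H1f3 and Hmgn2 over Hmgn3 overlap.

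The genes around the 2 families were read in lists by role, and no list gene passed an adjusted p of 0.05 in the edgeR test with its filter on low counts or with limma-voom. With DESeq2, H4c9, Srrt, Ccne2 and Kcnj11 passed. The edgeR test with no filter on low counts called the same 4 genes and Cdc6, a replication licensing factor. Without PTHrP replicate 2, the edgeR test called Srrt, Sympk, Ccne2, Kcnj11 and Neurod1. The counts at an unadjusted p under 0.05 are given list by list, beside 4.92% higher and 3.98% lower over all genes tested.

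The replication-dependent core histones share their mode of production with the clustered linker histones. Of 61 in the table, 29 could be fitted, 1 was higher and 1 lower at an unadjusted p under 0.05, 18 had a positive and 11 a negative log2 difference, and their median was 0.08, against -0.01 over all 21141 genes. They summed to 47.5, 54.6 and 47.3 CPM in the PTHrP libraries and 38.9, 39.8 and 48.4 CPM in the DsRed libraries, an overlap made by DsRed replicate 3. The most abundant were H2bc4, with a mean of 11.9 CPM in PTHrP cells and 11.7 CPM in DsRed cells, and Hist1h2ao, with 12.3 CPM in PTHrP cells and 9.57 CPM in DsRed cells. The core histone gene H4c9 had 8.80, 8.87 and 6.68 CPM in the PTHrP libraries, against 3.58, 3.62 and 6.33 CPM in the DsRed libraries, a log2 difference of 0.85 ± 0.22 (SE). H3c7 was barely detected, at 0.0457 CPM in PTHrP cells and 0.192 CPM in DsRed cells. Sequence is nearly shared among core histone copies, so counts of single copies are uncertain.

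The proteins that make and end histone mRNAs were fitted for 16 genes. Of these, 1 was higher and 3 were lower at an unadjusted p under 0.05, 10 had a positive and 6 a negative difference, and the median was 0.03. They summed to 1560.4, 1478 and 1523 CPM in the PTHrP libraries and 1662, 1599.7 and 1578 CPM in the DsRed libraries. The sums did not overlap, with the PTHrP libraries lower. That sum includes Slbp and Srrt, the 2 most abundant genes of the list and also the 2 with the smallest p. It therefore does not describe the other genes of the list. Slbp, the stem-loop binding protein, had 285, 265 and 287 CPM in the PTHrP libraries, against 329, 323 and 312 CPM in the DsRed libraries, a log2 difference of -0.20 ± 0.05 (SE). Srrt, an RNA cap-associated factor, had 177, 194 and 174 CPM in the PTHrP libraries, against 253, 231 and 230.3 CPM in the DsRed libraries, a log2 difference of -0.39 ± 0.06 (SE). Both were lower in every PTHrP library than in any DsRed library.

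The remaining linker histone with counts to fit, H1f10, is replication-independent like H1f0. It had 126, 118 and 124 CPM in the PTHrP libraries and 90.2, 103 and 124 CPM in the DsRed libraries, and DsRed replicate 3 reached the PTHrP range. Its log2 difference was 0.21 ± 0.10 (SE). H1f0 over H1f10 overlapped between groups, at 6.12 ± 0.0711 in PTHrP cells and 5.72 ± 0.716 in DsRed cells. Per kb, H1f10 stood at 101 CPM in PTHrP cells and 87.0 in DsRed cells, above Hmgn1 and under Hmgn2 by group mean. The germline variants H1f6, H1f7 and H1f8 had at most 12 counts in any library.

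Replacement histone variants, which are deposited outside replication, were 9 fitted genes with 7 positive and 2 negative differences and a median of 0.07, and 0 were under an unadjusted p of 0.05. H3f3b averaged 1193 CPM in PTHrP cells and 1218 CPM in DsRed cells, and H2az1 1102 CPM in PTHrP cells and 1028 CPM in DsRed cells. H2az2 had a log2 difference of 0.15 ± 0.09 and Macroh2a2 of 0.12 ± 0.08 (SE). Of 20 chaperones of linker histones and nucleosomes, 1 was higher and 1 lower at an unadjusted p under 0.05, 8 were positive and 12 negative, and the median was -0.01. Ptma, the prothymosin that binds linker histones, differed by 0.10 ± 0.07 on the log2 scale. Ssrp1, a subunit of the FACT chaperone, had 477, 489 and 471 CPM in the PTHrP libraries against 434, 437 and 437 CPM in the DsRed libraries, and Atrx, a chromatin remodeller, differed by -0.19 ± 0.09 (SE).

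The other HMG proteins bend DNA rather than bind through the HMGN domain. Of the 6 fitted, 0 were under an unadjusted p of 0.05, 2 were positive and 4 negative, and the median was -0.02. Hmgb2 averaged 415 CPM in PTHrP cells and 417 CPM in DsRed cells, Hmgb1 297 CPM in PTHrP cells and 313 CPM in DsRed cells, and Hmgb3 20.8 CPM in PTHrP cells and 21.5 CPM in DsRed cells. Among 13 enzymes and binders that modify or compete with H1 and HMGN proteins, 1 was higher and 0 lower at an unadjusted p under 0.05, 4 were positive and 9 negative, and the median was -0.08. Parp1 averaged 279.9 CPM in PTHrP cells and 274 CPM in DsRed cells, and Lbr, a lamina protein, 266 CPM in PTHrP cells and 275 CPM in DsRed cells. Ctcf, an insulator protein, differed by 0.25 ± 0.10 and Kat2a, an acetyltransferase, by -0.15 ± 0.08 on the log2 scale (SE).

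Cell cycle genes were read because the clustered linker histones are made in S phase. Of 26 S phase genes 2 were higher and 3 lower at an unadjusted p under 0.05, 8 were positive and 18 negative, and the median was -0.02. They summed to 6501, 6398 and 6498 CPM in the PTHrP libraries and 6749.5, 6583 and 6239 CPM in the DsRed libraries. Mcm2 and Mcm6, subunits of the replicative helicase, differed by 0.02 ± 0.05 and -0.04 ± 0.05 on the log2 scale (SE). Ccne2, a G1/S cyclin, had 97.4, 98.8 and 104 CPM in the PTHrP libraries against 137, 118 and 122 CPM in the DsRed libraries, without overlap. Slbp, given above, is in this list too and counts among its 3 lower genes. Of 16 G2 and mitotic genes 3 were higher and 1 lower at that level, 8 were positive and 8 negative, and the median was -0.01. Top2a and Ccnb1 differed by -0.07 ± 0.05 and -0.03 ± 0.05, while Aurka stood at 0.16 ± 0.05 and Ube2c at -0.16 ± 0.06 (SE). The part of cell cycle differences in the histone values was not tested.

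Beta cell genes that have been linked to HMGN3 in mice were 9 fitted genes, of which 1 was higher and 1 lower at an unadjusted p under 0.05, 2 were positive and 7 negative, with a median of -0.06. Slc2a2 averaged 389 ± 46.4 CPM in PTHrP cells and 407 ± 16 CPM in DsRed cells, a log2 difference of -0.07 ± 0.08 (SE), and overlapped. Ins2 and Ins1, the insulin genes, differed by -0.06 ± 0.09 and -0.05 ± 0.10 (SE). Kcnj11, a subunit of the ATP-sensitive potassium channel, had 32.4, 30.5 and 32 CPM in the PTHrP libraries against 22.9, 23.5 and 22.8 CPM in the DsRed libraries, a log2 difference of 0.46 ± 0.07. Neurod1, a beta cell transcription factor, had 416, 417 and 392 CPM in the PTHrP libraries against 496, 468 and 459.8 CPM in the DsRed libraries, a log2 difference of -0.22 ± 0.05 (SE).

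The genes whose log2 CPM followed a member most closely over the 6 libraries were named by Pearson's r among 9367 genes. Both groups enter this measure, so it holds the group difference as well as the spread within groups. The named genes are also the highest of 9367 values over only 6 libraries. Such a selection gives large r by itself, so no shared regulation is read from them. For H1f0 these were Fndc10 (r = 0.996), Amdhd2 (0.995) and Gm47163 (0.993). For H1f2 they were Grn (0.998), which encodes progranulin, Hyi (0.993) and Sil1 (0.992), an exchange factor for an endoplasmic reticulum chaperone. For Hmgn3 they were Trib1 (0.989), Maob (0.988) and Rab6a (0.984).

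The libraries held 84427033 to 94613684 counts in the PTHrP group and 86686554 to 91010177 in the DsRed group. Pthlh, the gene of PTHrP, was counted 697, 553 and 797 times in the PTHrP libraries, against 0, 4 and 8 times in the DsRed libraries, which matches the labels. Between pairs of libraries the chi-square per gene was 9.08 to 68.6, and it was 55.5 or more in every pair with PTHrP replicate 2.

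Of 15 beta cell markers 3 had a positive and 12 a negative log2 difference, with a median of -0.07, and 0 were higher and 2 lower at an unadjusted p under 0.05. They summed to 56996 to 63993 CPM in the PTHrP libraries and 58409 to 70101 CPM in the DsRed libraries. Iapp, the islet amyloid peptide, averaged 7173 CPM in PTHrP cells and 7717 CPM in DsRed cells. Pcsk1, a prohormone convertase, had 309, 324 and 296 CPM in the PTHrP libraries against 381, 363 and 329 CPM in the DsRed libraries, a log2 difference of -0.21 ± 0.06 (SE). Neurod1, given above, passed the adjusted threshold without PTHrP replicate 2. The part of these markers in the members' values was not tested.

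Alpha cell markers summed to 324 to 412 CPM in the PTHrP libraries and 357 to 394 CPM in the DsRed libraries, mainly Gcg and Ttr, and of 4 fitted 3 were positive and 1 negative, with a median of 0.12. Gcg, the glucagon gene, averaged 159 CPM in PTHrP cells and 148 CPM in DsRed cells, Ttr 214 CPM in PTHrP cells and 222 CPM in DsRed cells, and Irx2 2.8 CPM in PTHrP cells and 1.97 CPM in DsRed cells. Markers of delta, PP and epsilon cells summed to under 1 CPM in every library, and Hhex, the 1 that could be fitted, had 0.117 CPM in PTHrP cells and 0.176 CPM in DsRed cells. Acinar and ductal markers summed to under 4 CPM in every library, with Ptf1a and Amy2a2 at 0, and of 4 fitted 2 were positive and 2 negative, with a median of -0.10. Among them Cela1 averaged 1.88 CPM in PTHrP cells and 1.65 CPM in DsRed cells, Spp1 0.559 CPM in PTHrP cells and 0.549 CPM in DsRed cells, and Pnlip 0.0967 CPM in PTHrP cells and 0.146 CPM in DsRed cells. None of these 3 lists had a gene under an unadjusted p of 0.05.

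Markers of fibroblasts, endothelium and immune cells summed to 7.15 to 8.99 CPM in the PTHrP libraries and 8.28 to 10.3 CPM in the DsRed libraries. Of 10 fitted, 2 were positive and 8 negative, the median was -0.55, and 0 were higher and 1 lower at an unadjusted p under 0.05. Col1a2 and Cd68 carried most of the sum, with 3.69 and 1.44 CPM in PTHrP cells and 3.7 and 1.23 CPM in DsRed cells. Ptprc, a leukocyte surface protein, had 0.209, 0.647 and 0.504 CPM in the PTHrP libraries against 1.03, 0.776 and 0.995 CPM in the DsRed libraries. Col3a1, a fibrillar collagen, had 0.0465, 0.282 and 0.0945 CPM in the PTHrP libraries against 0.289, 0.605 and 0.295 CPM in the DsRed libraries. Both were lower in every PTHrP library, on counts of 4 to 91, and their part in the members' values was not tested.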

How the data were processed

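The values are raw counts per gene and library, deposited by the authors. Per the submitters' processing notes, reads were handled with bcl2fastq, STAR and featureCounts 2.0.3 of Subread on GRCm38. The sources used here name no annotation release, strand setting, library kit or rule for reads that match several places, which leaves genes with an overlapping, antisense or near-identical partner uncertain. Groups were read off the titles. The labels do not call the replicates separate cultures, and p-values then describe spread between samples that may be technical.

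The table had 55774 rows, and 287 repeats of identifiers were dropped, which left 55487 genes. Every pair of libraries differed by more than sampling noise. Genes were filtered with filterByExpr (minimum count 10), TMM-scaled and fitted with edgeR 4.0.16 (robust quasi-likelihood, group term alone, R 4.3.3, two-sided, Benjamini-Hochberg adjustment, threshold 0.05). The log2 differences are PTHrP over DsRed, and the biological coefficient of variation was 17.7%. DESeq2 1.42.0, voom in limma 3.58.1, other scalings, other filters, a replicate block and leaving out each library were alternatives. The scripts were tested on simulated data. Levels per kb use merged GENCODE M21 exons, promoters are from RefSeq (GRCm38.p6), and motifs were searched on both strands.

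The members, gene lists and tests were chosen with earlier results of these data known. All 10 members are named. Of each list the text names the 2 most abundant genes and the 2 with the smallest p, and beside them genes called under an alternative and markers at 0, chosen after their values were seen. It also names for H1f0, H1f2 and Hmgn3 the 3 genes with the highest r among genes averaging 3 or more in log2 CPM.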

Additional observations from a re-analysis of the deposited data

How the results depend on the processing

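Over 126 values of the members' log2 differences under the alternatives, none moved by more than the spread between replicates. The sign changed in 2, both without PTHrP replicate 2 (H1f5 to 0.08 and Hmgn5 to -0.08). That spread is wider than the SE of a difference. Without PTHrP replicate 2, Hmgn5 moved by more than its SE, from 0.24 ± 0.21 to -0.08. In all settings that kept every library the log2 differences stayed within 0.32 to 0.34 for H1f0, 0.63 to 0.65 for H1f2, -0.35 to -0.33 for Hmgn2 and -0.29 to -0.27 for Hmgn3. The count of genes past the threshold, 9, was 14 with library sizes alone, 220 with no filter on low counts, 136 with DESeq2 and 2 to 213 when each library was left out, with the highest count without PTHrP replicate 2. Leaving out PTHrP replicate 1 or DsRed replicate 1 gave 4 genes, DsRed replicate 2 gave 2, PTHrP replicate 3 gave 14 and DsRed replicate 3 gave 17. Of the 9 fitted members 0 passed, against 3 with no filter, 3 with DESeq2 and 0 to 3 when each library was left out, and of the list genes 0 to 5 passed when each was left out. The causes were not tested. Libraries with the same replicate number did not deviate together (correlations of 0.023, -0.106 and 0.025), so the numbers were not taken as pairs, and with the replicate block 7 genes and 0 members passed. The H1f0 share of H1f0 to H1f5 was 94.0% in PTHrP cells and 94.9% in DsRed cells with no length term, and 83.3% in PTHrP cells and 85.6% in DsRed cells with RefSeq lengths. With H1f10 counted among the linker histones it was 73.6% in PTHrP cells and 73.1% in DsRed cells per kb, and 81.5% in PTHrP cells and 81.3% in DsRed cells with no length term, so the order of the group means was the opposite. The RefSeq lengths and the counting of H1f10 were chosen after seeing the data. The Hmgn2 share was 61.4% in PTHrP cells and 66.0% in DsRed cells with no length term. Depth limits H1f1, H1f4 and H1f5, which had at most 172 counts in a library. It also limits H1f3, which had 131 to 268.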
